A study of Mus musculus with 6 samples.

Results

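The 9 messages described here, Zfp36, Zfp36l1, Zfp36l2, Elavl1, Pum2, Msi2, Stau1, Fmr1 and Khsrp, encode RNA-binding proteins other than the CPEB family that act on the 3′ untranslated regions (UTRs) of other messages. They were taken by symbol from the deposited count table, which held all 9 among 55376 genes, and all 9 were among the 18054 genes that passed the filter on low counts. RNA came from sorted muscle stem cells of C57BL/6 mice aged 3 months, and each of 3 groups had 2 libraries: RNA immunoprecipitated (RIP) with an antibody to CPEB4, RNA immunoprecipitated with IgG as the nonspecific antibody, and input, the total RNA. No genotype or treatment is named for the mice, and whether the 2 libraries of a group came from separate animals or pools is not stated beyond the term biological replicates for CPEB4 RIP, and the p-values reflect no more than the spread among these libraries, which may be technical in part. The comparisons ask which messages the CPEB4 antibody recovered beyond IgG and beyond their level in the cells. The values are amounts of message, not of the proteins encoded.

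The ZFP36 proteins bind AU-rich elements through paired zinc fingers and recruit deadenylases, which shortens the life of the message. KHSRP also promotes decay of AU-rich messages, whereas ELAVL1 (HuR) binds U-rich and AU-rich stretches and generally stabilises them. PUM2 and FMR1 (FMRP) mostly repress translation, MSI2 regulates translation, and STAU1 binds RNA duplexes and can trigger decay or alter translation. In muscle stem cells ZFP36 and STAU1 are known for restraining Myod1, the message of the myogenic factor MyoD, by decay and by repressed translation. CPEB proteins act on the same kind of region: in Xenopus oocytes, Musashi and Pumilio proteins and a ZFP36-type protein work on messages that CPEB also regulates.

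Library totals ran from 9018323 to 20843042 counts. The IgG RIP libraries stood apart from each other, with a Pearson r of log2 CPM (counts scaled to library size) across 18054 genes of 0.873, against 0.981 for the CPEB4 RIP pair and 0.975 for the input pair. The number of genes past the test over IgG was 1482, and it ranged from 0 to 7710 when 1 of the 6 libraries was left out, so the values without each IgG RIP library are given below beside the results that rest on them. All 11 muscle stem cell markers had counts in every library, from a minimum of 92 for Cxcr4 to at least 533050 for Sdc4, and Pax7 had 1768 to 5041. The 8 endothelial and 8 fibro-adipogenic markers listed also had counts in every library. Detection of the markers therefore does not tell these cell types apart. Gene levels are given as TMM-scaled CPM (TMM, edgeR's trimmed-mean scaling between libraries), and levels are compared between genes as deposited FPKM (fragments scaled to gene length and library size). A call means an adjusted p under 0.05 in edgeR's quasi-likelihood test, adjusted by Benjamini-Hochberg over the 18054 genes.

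Over IgG, 1 of the 9 messages, Zfp36l2, was called higher in CPEB4 RIP and 0 were called lower, where 8.21% of all genes tested were called in either direction, 4.79% higher and 3.42% lower. Over input 4 were called higher, Zfp36l2, Zfp36l1, Khsrp and Zfp36, and 0 lower, against 12.7% of all genes in either direction, 8.0% higher and 4.70% lower. For all 4 of these messages both IgG RIP libraries were above both inputs as well. The median log2 fold change of the 9 messages was -0.15 over IgG, where that of all genes tested was -0.07, and 0.61 over input, where that of all genes was -0.06. In IgG RIP against input it was 0.44, where that of all genes was 0.05, with 8 of the 9 values positive. The 2 comparisons with CPEB4 RIP share its libraries.

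**Figure D1:**
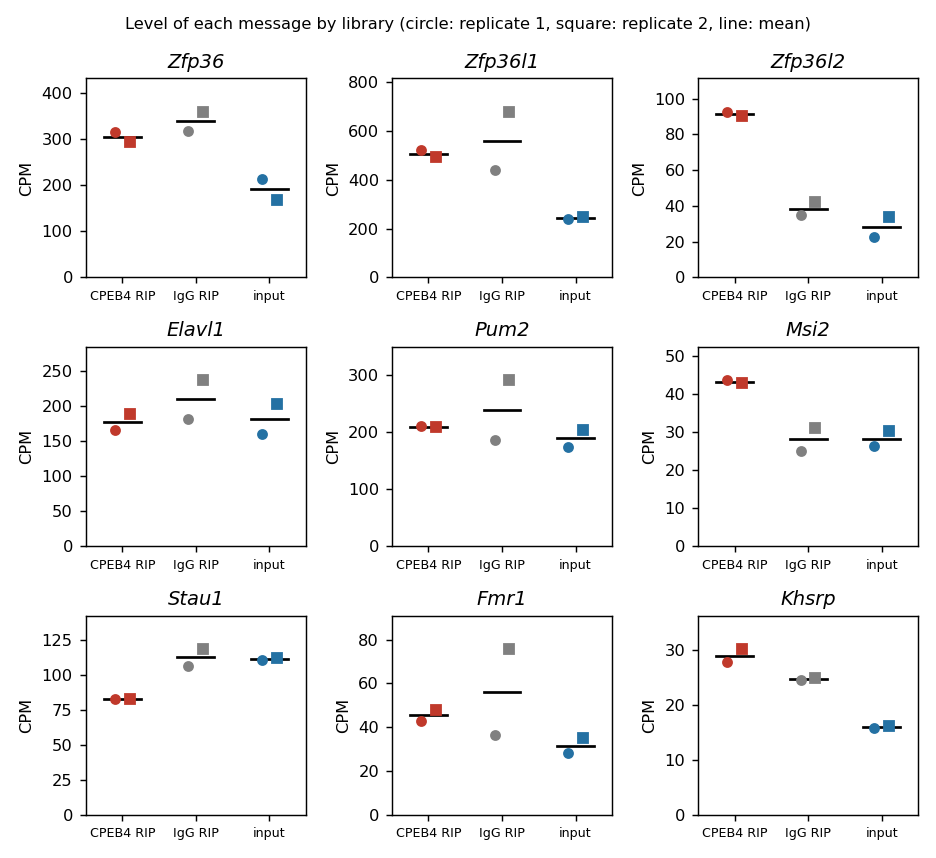
CPM (TMM-scaled) of each of the 9 messages in CPEB4 RIP, IgG RIP and input, with replicate 1 as a circle, replicate 2 as a square and the group mean as a line; every axis starts at 0. Zfp36l2 stands at 92.7 and 90.2 CPM in CPEB4 RIP, above all 4 other libraries, and the IgG RIP libraries are far apart for Zfp36l1, Pum2 and Fmr1.

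Zfp36l2 encodes the ZFP36 family member known for restraining the cell cycle in developing lymphocytes; it lies on chromosome 17, 84183924 to 84187947 (GRCm38, mm10). It had 92.7 and 90.2 CPM in the CPEB4 RIP libraries, against 34.7 and 42.3 CPM in the IgG RIP libraries and 22.8 and 34.0 CPM in the inputs. Both CPEB4 RIP libraries lay above all 4 others, and both IgG RIP libraries were above both inputs. The message was 2.37-fold higher in CPEB4 RIP than in IgG RIP (log2 fold change 1.25, SE 0.23, adjusted p = 0.0233), and 3.23-fold higher than in input (1.69, SE 0.24, adjusted p = 0.00586). IgG RIP stood at 0.44 over input (SE 0.24, adjusted p = 0.446), which was not called.

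The log2 fold change of Zfp36l2 over IgG was 1.29 (adjusted p = 9.00e-06) without IgG RIP replicate 1 and 1.54 (1.27e-06) without IgG RIP replicate 2, 2 fits in which 7710 and 7405 genes were called in all. The median log2 fold change over IgG of the genes they share with the fit to all libraries moved by 0.38 without replicate 1 and by 0.19 without replicate 2, upwards in both, and the values over IgG given below without one of these libraries hold that shift. For IgG RIP against input it moved by -0.18 and -0.12 in the same order. A group that loses a library is left with 1, which these fits assume to vary like the other groups, so the spread between the IgG RIP libraries does not enter a fit without one of them, and a call gained there is no support for a difference. Over IgG Zfp36l2 no longer passed the test when CPEB4 RIP replicate 1 was left out (1.44, adjusted p = 0.0858, with 204 genes called) or replicate 2 (1.32, 0.238, with 0 called), with a gene length offset (1.14, 0.134, with 0 called), or with limma on log2(FPKM + 0.1) (adjusted p = 0.0781) or on log2(FPKM + 1) without a filter (0.187). Over input it missed the threshold when CPEB4 RIP replicate 2 was left out (1.77, adjusted p = 0.0706) and with the same limma settings (0.0580 and 0.0775).

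Zfp36l1, on chromosome 12, 80107760 to 80113013, encodes the ZFP36 relative also known as BRF1 and was the most abundant of the 9 messages. It had 522 and 493 CPM in the CPEB4 RIP libraries, against 442 and 679 CPM in the IgG RIP libraries and 241 and 248 CPM in the inputs. The CPEB4 RIP libraries fell between the IgG RIP libraries, and all 4 immunoprecipitated libraries exceeded both inputs. Its log2 fold change was 1.05 over input (SE 0.21, adjusted p = 0.0175) and -0.14 over IgG (SE 0.20, adjusted p = 0.683; 95% interval -0.62 to 0.33). The call over input was lost when any one of the CPEB4 RIP or input libraries was left out (adjusted p 0.0650 to 0.135), with a gene length offset (0.0927), and with limma on log2(FPKM + 0.1) (0.105) or on log2(FPKM + 1) without a filter (0.206). The value over IgG changed sign without IgG RIP replicate 2 (0.34, adjusted p = 0.178) and was -0.24 (0.328) without replicate 1.

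Zfp36 itself, the message of tristetraprolin, an early-response gene on chromosome 7, 28376784 to 28379228, had 317 and 293 CPM in the CPEB4 RIP libraries, against 318 and 361 CPM in the IgG RIP libraries and 215 and 168 CPM in the inputs. The CPEB4 RIP libraries were just under the IgG RIP libraries and above both inputs. The log2 fold change was -0.15 over IgG (SE 0.17, adjusted p = 0.590; 95% interval -0.54 to 0.24) and 0.67 over input (SE 0.17, adjusted p = 0.0404). The call over input was lost when any one of the CPEB4 RIP or input libraries was left out (adjusted p 0.0514 to 0.241). It was also lost with scaling by library size alone (0.45, adjusted p = 0.133), a mean count of at least 20 (0.0545), thinning to the lowest total (0.0755), a gene length offset (0.125) and the 3 limma settings (0.0630 to 0.220), 11 of the 19 alternatives in all.

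IgG RIP stood at 1.20 over input for Zfp36l1 (SE 0.21, adjusted p = 0.165) and at 0.82 for Zfp36 (SE 0.17, adjusted p = 0.199). Neither was called, in a comparison where edgeR called 0 of 18054 genes (0% of all genes), with 2550 genes at an unadjusted p under 0.05, and the DESeq2 Wald test called 706. Of the 9 messages, 4 (Zfp36, Zfp36l1, Fmr1 and Khsrp) had an unadjusted p under 0.05 in IgG RIP against input, where 14.1% of all genes did, and DESeq2 called 2, Zfp36l1 (1.15, adjusted p = 6.21e-07) and Zfp36 (0.78, 5.77e-04). The values of Zfp36l1 and Zfp36 were 1.35 and 0.79 without IgG RIP replicate 1 and 0.78 and 0.66 without replicate 2, fits against a lone IgG RIP library in which 6657 and 1739 genes were called in all. The sum of the 3 family messages was 932 and 877 CPM in the CPEB4 RIP libraries, against 795 and 1082 CPM in the IgG RIP libraries and 479 and 450 CPM in the inputs.

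On the FPKM scale Zfp36l2 made 8.99% and 9.29% of the summed level of the 3 messages in the CPEB4 RIP libraries, against 3.94% and 3.49% in the IgG RIP libraries and 4.33% and 6.82% in the inputs. The shares of the other family messages overlapped between CPEB4 RIP and IgG RIP, at 31.3% and 30.7% against 36.8% and 30.3% for Zfp36 and at 59.7% and 60.0% against 59.3% and 66.2% for Zfp36l1. The ratio of Zfp36l2 to Zfp36l1 was 0.150 and 0.155 in the CPEB4 RIP libraries, against 0.0664 and 0.0527 in the IgG RIP libraries and 0.0801 and 0.116 in the inputs. The CPEB4 RIP libraries were above all others in this ratio. For the ratio over IgG a two-sided exact permutation test gave p = 0.333, the smallest p that 2 libraries against 2 allow.

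**Figure D2:**
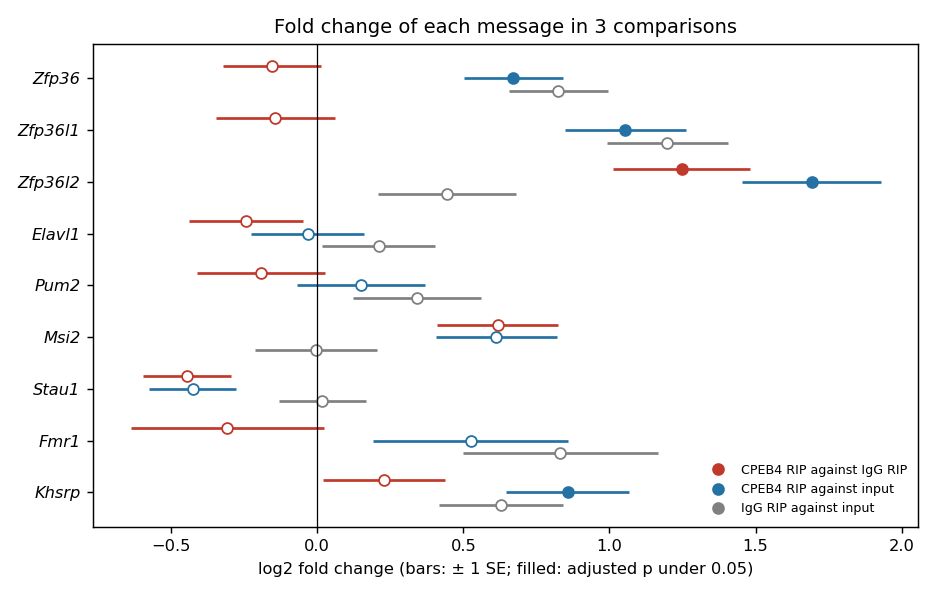
Log2 fold change of each message in CPEB4 RIP against IgG RIP, CPEB4 RIP against input and IgG RIP against input, with bars of 1 SE and filled points where the adjusted p in edgeR's test was under 0.05. Zfp36l2 has a filled point in both comparisons with CPEB4 RIP, at 1.25 and 1.69, while Zfp36l1 (1.05 and 1.20) and Zfp36 (0.67 and 0.82) stand above input in CPEB4 RIP and in IgG RIP.

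Khsrp, the other decay-promoting AU-rich element binder among the 9, lies on chromosome 17, 57021049 to 57031507. It was the least abundant by counts, with 27.8 and 30.2 CPM in the CPEB4 RIP libraries, against 24.5 and 24.9 CPM in the IgG RIP libraries and 15.8 and 16.2 CPM in the inputs. The groups did not overlap, with CPEB4 RIP highest and input lowest. It was 1.81-fold higher in CPEB4 RIP than in input (0.86, SE 0.21, adjusted p = 0.0382), and relative to IgG its log2 fold change was 0.23 (SE 0.21, adjusted p = 0.520; 95% interval -0.26 to 0.72). IgG RIP stood at 0.63 over input (SE 0.21, adjusted p = 0.263). The call over input was lost when any one of the CPEB4 RIP or input libraries was left out (adjusted p 0.184 to 0.381), with scaling by library size alone (0.64, 0.0876), with a gene length offset (0.0781) and with limma on log2(FPKM + 0.1) (0.0921).

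Elavl1, the stabilising AU-rich element binder, on chromosome 8, 4284781 to 4325140, was not called in any of the 3 comparisons. It had 165 and 188 CPM in the CPEB4 RIP libraries, against 182 and 236 CPM in the IgG RIP libraries and 159 and 202 CPM in the inputs, and all 3 groups overlapped. The log2 fold change was -0.24 over IgG (SE 0.19, adjusted p = 0.458; 95% interval -0.70 to 0.21) and -0.03 over input (SE 0.19, adjusted p = 0.932; 95% interval -0.49 to 0.42). Over IgG it was -0.24 without IgG RIP replicate 1 and turned to 0.098 without replicate 2 (adjusted p = 0.734).

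Pum2 (chromosome 12, 8674092 to 8752583), a Pumilio protein, had 210 and 208 CPM in the CPEB4 RIP libraries, against 187 and 291 CPM in the IgG RIP libraries and 174 and 204 CPM in the inputs. The CPEB4 RIP libraries fell between the IgG RIP libraries and just above the inputs, with log2 fold changes of -0.19 over IgG (SE 0.22, adjusted p = 0.608) and 0.15 over input (SE 0.22, adjusted p = 0.698). Over IgG the value was -0.29 (adjusted p = 0.235) without IgG RIP replicate 1 and turned to 0.30 (0.241) without replicate 2.

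Msi2 (chromosome 11, 88339382 to 88718306), a Musashi protein, had 43.7 and 42.9 CPM in the CPEB4 RIP libraries, against 25.2 and 31.2 CPM in the IgG RIP libraries and 26.4 and 30.2 CPM in the inputs. Both CPEB4 RIP libraries were above the 4 others, and IgG RIP and input overlapped. The log2 fold change was 0.62 over IgG (SE 0.21, unadjusted p = 0.0189, adjusted p = 0.110; 95% interval 0.13 to 1.10) and 0.61 over input (SE 0.21, adjusted p = 0.0986), so neither was called. Against a lone IgG RIP library the value was 0.65 (adjusted p = 0.0216) without IgG RIP replicate 1 and 0.92 (0.00230) without replicate 2, in the fits that called 7710 and 7405 genes. Over input it was called with only the 4 libraries compared (0.57, adjusted p = 0.0123), a fit that called 7340 of 16966 genes. The value over input was 0.67 without IgG RIP replicate 1 and 0.68 without replicate 2. The gene's span also holds Mir378b, Gm11510 and 0610039H22Rik, and with a strand setting not given in the sources used here, reads of overlapping transcripts cannot be told apart.

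Stau1 (chromosome 2, 166947549 to 166996315) was the only one of the 9 with both CPEB4 RIP libraries below all 4 others. It had 82.9 and 82.8 CPM in the CPEB4 RIP libraries, against 107 and 119 CPM in the IgG RIP libraries and 111 and 112 CPM in the inputs. Its log2 fold change was -0.44 over IgG (SE 0.15, unadjusted p = 0.0195, adjusted p = 0.111; 95% interval -0.79 to -0.09) and -0.43 over input (SE 0.15, adjusted p = 0.112), and it passed in neither. With the DESeq2 Wald test it was called lower over both (-0.46, adjusted p = 0.0346, and -0.48, adjusted p = 0.0165). That test called 2892 genes over IgG and 3479 over input. Stau1 was also called lower over both with library size alone and with a mean count of at least 20. Those settings moved the median of all genes by -0.22 and -0.15 over input, and by -0.08 each over IgG. Over input Stau1 was called lower with only the 4 libraries compared, a fit that called 7340 of 16966 genes. It was called lower there too when thinned to the lowest total, where that median moved by -0.12. With a gene length offset Stau1 was -0.44 over IgG (adjusted p = 0.364) and -0.16 over input (0.755). Without IgG RIP replicate 1 the value over IgG was -0.34 (adjusted p = 0.178), and without replicate 2 it was -0.23 (0.389).

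Fmr1 (chromosome X, 68678536 to 68717963), the message of FMRP, had 42.9 and 47.9 CPM in the CPEB4 RIP libraries, against 36.4 and 75.7 CPM in the IgG RIP libraries and 28.1 and 35.1 CPM in the inputs. Its direction over IgG rested on 1 library. The log2 fold change was -0.31 over IgG (SE 0.33, adjusted p = 0.585), -0.56 (0.0353) without IgG RIP replicate 1 and 0.46 (0.114) without IgG RIP replicate 2. Over input it was 0.52 (SE 0.33, adjusted p = 0.346), with both CPEB4 RIP libraries above both inputs. The value over input was called with only the 4 libraries compared (0.49, adjusted p = 0.0332), a fit that called 7340 of 16966 genes. Without IgG RIP replicate 1 and without replicate 2 it was 0.59 in each.

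**Figure D3:**
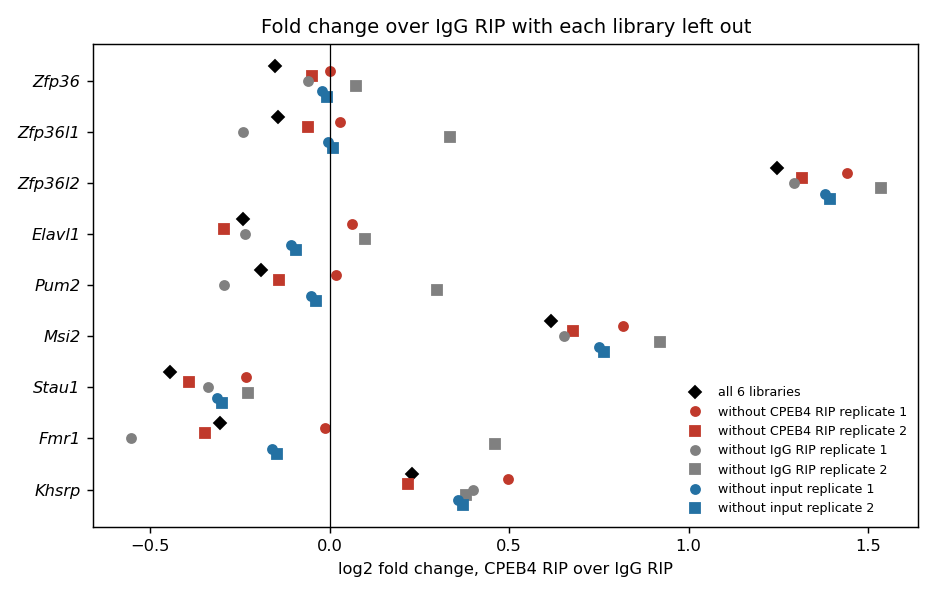
Log2 fold change of each message in CPEB4 RIP over IgG RIP with all 6 libraries (diamond) and with each library left out in turn, coloured by the group of the library left out. Zfp36l2 stays between 1.25 and 1.54 and Msi2 between 0.62 and 0.92, while Fmr1 spans -0.56 to 0.46 and Zfp36, Zfp36l1, Elavl1 and Pum2 also cross 0.

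Between CPEB4 RIP and IgG RIP, 5 of the 9 messages had libraries that did not overlap, 3 above (Zfp36l2, Msi2 and Khsrp) and 2 below (Stau1 and Zfp36). Of all genes tested 54.9% did not overlap, 29.4% above and 25.5% below, so the share among the 9 was near the background. Between CPEB4 RIP and input 8 of 9 did not overlap, 7 of them above, against 72.1% of all genes, with 34.4% above and 37.6% below. Between IgG RIP and input 5 of 9 did not overlap, all above, against 42.0% of all genes, with 21.4% above and 20.7% below. At an unadjusted p under 0.05 stood 3 of the 9 over IgG and 6 over input, against 26.8% and 28.1% of all genes.

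The order of abundance by FPKM was alike at the top in the 3 groups. Zfp36l1 was first, at 122 ± 7.27 FPKM in the CPEB4 RIP libraries, against 128 ± 42.7 in the IgG RIP libraries and 58.6 ± 0.384 in the inputs (SD, n = 2 each). Zfp36 was the second and Pum2 the third, with Pum2 at 20.7 ± 0.538 FPKM in the CPEB4 RIP libraries, against 22.4 ± 7.67 in the IgG RIP libraries and 18.6 ± 1.84 in the inputs. Zfp36l2 took the fourth place in CPEB4 RIP (18.7 ± 0.722 FPKM) and the sixth in IgG RIP (7.39 ± 1.31) and input (5.76 ± 1.53), where Elavl1 and Stau1 were above it. In CPEB4 RIP no neighbours in the order overlapped. In IgG RIP and in input Elavl1 and Stau1 overlapped each other, as did Fmr1 and Khsrp. Msi2 was last in all 3 groups, at 3.00 ± 0.0941 FPKM in the CPEB4 RIP libraries, against 1.84 ± 0.344 in the IgG RIP libraries and 1.95 ± 0.159 in the inputs.

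Gene length moved with the fold changes across all genes: over IgG the median log2 fold change was -0.31 in the longest 25% of the genes tested and 0.31 in the shortest 25%, and over input -0.32 and 0.46. The ZFP36 family messages lay near the middle of the lengths, at percentiles 44.8 for Zfp36, 38.1 for Zfp36l1 and 45.7 for Zfp36l2. Longer were Elavl1 (92.3), Msi2 (92.4), Fmr1 (88.5), Pum2 (80.9) and Stau1 (73.1), with Khsrp at 55.8. With a gene length offset the log2 fold change of Zfp36l2 was 1.14 over IgG (adjusted p = 0.134), which was no longer called, and 1.90 over input (0.0364), and the calls over input of Zfp36l1, Zfp36 and Khsrp were lost. The longer messages then stood over input at 1.05 (Msi2), 0.92 (Fmr1), 0.47 (Pum2), 0.40 (Elavl1) and -0.16 (Stau1). Over IgG they stood at 0.84, -0.19, -0.15, -0.02 and -0.44 in the same order, and they were called in neither. The offset moved the median of all genes by 0.16 over input and by -0.03 over IgG.

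Several markers of other cell types were called higher in CPEB4 RIP than in IgG RIP. The summed level of 13 leukocyte markers was 73.3 and 93.4 CPM in the CPEB4 RIP libraries, against 44.5 and 57.8 CPM in the IgG RIP libraries and 38.0 and 47.2 CPM in the inputs. Of 11 tested, 1, S100a8, was called higher over IgG and 0 lower. The 11 fitted values ran from -3.81 to 3.14, and 5 were negative, among them Ptprc (-1.70) and Csf1r (-1.73). Itgam, Cd3e, Adgre1, Tyrobp and Laptm5 were at 0 counts in 1 to 3 libraries. The 6 erythroid markers summed to 658 and 328 CPM in the CPEB4 RIP libraries, against 88.0 and 147 CPM in the IgG RIP libraries and 109 and 179 CPM in the inputs, and Hba-a1, Hba-a2 and Hbb-bs of the 5 tested were called higher over IgG. The 10 myofibre markers summed to 262 and 207 CPM in the CPEB4 RIP libraries, against 126 and 163 CPM in the IgG RIP libraries and 134 and 187 CPM in the inputs, with Tnnt3, Myl1 and Tnni2 of 9 tested called higher. The 8 endothelial markers summed to 548 and 357 CPM in the CPEB4 RIP libraries, against 251 and 375 CPM in the IgG RIP libraries and 246 and 270 CPM in the inputs, with Fabp4 called higher. The 8 fibro-adipogenic markers summed to 2556 and 1962 CPM in the CPEB4 RIP libraries, against 1615 and 2165 CPM in the IgG RIP libraries and 1221 and 1316 CPM in the inputs, with Col3a1 and Mfap5 called higher. Fitted values over IgG were negative for 2 of 9 myofibre, 3 of 8 endothelial and 1 of 8 fibro-adipogenic markers. The lowest were -1.28, -0.23 and -0.63 in that order, and no marker of these types was called lower. Of all genes tested 4.79% were called higher over IgG and 3.42% lower. The muscle stem cell markers summed to 63848 and 69807 CPM in the CPEB4 RIP libraries, against 63558 and 62146.5 CPM in the IgG RIP libraries and 47342 and 48575 CPM in the inputs, a sum made mostly of Sdc4, which averaged 59728 CPM in CPEB4 RIP. Of the 11 muscle stem cell markers Vcam1 was called lower over IgG. The part of any of these cells in the level of Zfp36l2 was not tested, and in RNA from many cells a share of cells and an amount of RNA per cell cannot be told apart.

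Beside the counts for the lists below, 4.79% of all genes tested were called higher over IgG and 3.42% lower. Over input 8.0% were called higher and 4.70% lower. The median log2 fold change of all genes was -0.07 over IgG and -0.06 over input. Among relatives of the 9 messages, 1 of 9 tested was called higher over IgG and 0 lower, with a median log2 fold change of -0.35. It was Stau2, the paralogue of Stau1 and like it a binder of RNA duplexes, at 22.2 ± 0.0587 CPM in the CPEB4 RIP libraries, against 7.79 ± 1.06 in the IgG RIP libraries and 10.3 ± 2.15 in the inputs (SD, n = 2 each). The log2 fold change of Stau2 was 1.51 over IgG (SE 0.29, adjusted p = 0.0250) and 1.11 over input (SE 0.29, adjusted p = 0.0438), where Stau1 stood at -0.44 and -0.43. Among the relatives the number called over IgG fell without either CPEB4 RIP library and rose without either IgG RIP library, as it did among all genes. Elavl4 had 38 counts in all and was not tested.

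Other binders of 3′ UTRs and AU-rich elements had 7 of 24 called higher and 1 lower over IgG, against 4.79% and 3.42% of all genes. Over input 10 were called higher and 2 lower, against 8.0% and 4.70% of all genes. The medians of these 24 were 0.26 over IgG, 0.78 over input and 0.41 in IgG RIP against input. Those of all genes were -0.07, -0.06 and 0.05 in the same order. Pcbp2, a poly(C)-binding protein, had 291 ± 12.2 CPM in the CPEB4 RIP libraries, against 90.5 ± 6.46 in the IgG RIP libraries and 76.5 ± 14.2 in the inputs, which put its log2 fold change at 1.69 over IgG (SE 0.18, adjusted p = 0.00719). Ythdf1, a reader of methylated adenosine, stood at 1.81 (SE 0.22, adjusted p = 0.00835) and Hnrnpab, an hnRNP protein, at 1.58 (SE 0.20, adjusted p = 0.00866). Over input Hnrnpab (2.35), Hnrnpd (1.93), which encodes the AU-rich element binder AUF1, and Pcbp2 (1.93) had the smallest p. For these binders the number called over IgG fell without either CPEB4 RIP library and rose without either IgG RIP library, as it did among all genes.

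Of 16 genes of small RNA silencing and stress granules, 0 were called higher over IgG, against 4.79% of all genes. Called lower were 2, against 3.42% of all genes, and the median was -0.28. The 2 were G3bp2, a stress granule nucleator, at -1.29 (SE 0.17, adjusted p = 0.00969), and Cyfip1, a partner of FMRP, at -1.47 (SE 0.20, adjusted p = 0.0101). Over input both were called lower (-1.09 and -2.00) and Ago2, an Argonaute, higher (1.03, SE 0.23, adjusted p = 0.0278). Ago2 was not called over IgG (0.31, SE 0.23, adjusted p = 0.422). It averaged 163 CPM in CPEB4 RIP, 131 CPM in IgG RIP and 79.6 CPM in input. The number called over IgG fell when either CPEB4 RIP library was left out. It rose, with calls in both directions, when either IgG RIP library was left out. The number called among all genes moved in the same way.

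Regulators of the ZFP36 proteins had 3 of 12 called higher and 1 lower over IgG, against 4.79% and 3.42% of all genes. Their median was 0.28. Ppp2ca and Ppp2cb, catalytic subunits of a phosphatase that counters the phosphorylation of ZFP36, stood at 1.39 (SE 0.19, adjusted p = 0.0108) and 2.03 (SE 0.36, adjusted p = 0.0201). Dusp1, a phosphatase of MAP kinases, was lower at -1.11 (SE 0.12, adjusted p = 0.00719), with 1119 ± 35.7 CPM in the CPEB4 RIP libraries, against 2421 ± 161 in the IgG RIP libraries and 3621 ± 2.16 in the inputs (SD, n = 2 each). Over input 4 were called higher and 1 lower, against 8.0% and 4.70% of all genes. Dusp1 (-1.69), Ppp2ca (2.08) and Ywhag (1.42), an adaptor that binds phosphorylated proteins, had the smallest p there. Ywhag was not called over IgG (0.64, SE 0.16, adjusted p = 0.0549). Leaving out either CPEB4 RIP library lowered the number called over IgG, and leaving out either IgG RIP library raised it, as among all genes.

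Messages reported elsewhere as bound by ZFP36, ELAVL1, STAU1 or FMR1 proteins included both directions over IgG. Of these, 1 of 19 was called higher and 3 lower, against 4.79% and 3.42% of all genes, with a median of 0.00. Myc was lower at -1.28 (SE 0.15, adjusted p = 0.00789), as was Map1b, a microtubule-associated protein and FMRP target, at -1.63 (SE 0.19, adjusted p = 0.00789). Mcl1, an anti-apoptotic factor, was higher at 0.89 (SE 0.14, adjusted p = 0.0145). Over input 4 were called higher and 2 lower, against 8.0% and 4.70% of all genes, with a median of 0.37. Myc (-1.80), Map1b (-1.69) and Mcl1 (1.04) again had the smallest p. The median of the list in IgG RIP against input was 0.24. For these messages the calls over IgG were fewer without either CPEB4 RIP library. Without either IgG RIP library they were more, in both directions, and the number among all genes moved in the same way.

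**Figure D4:**
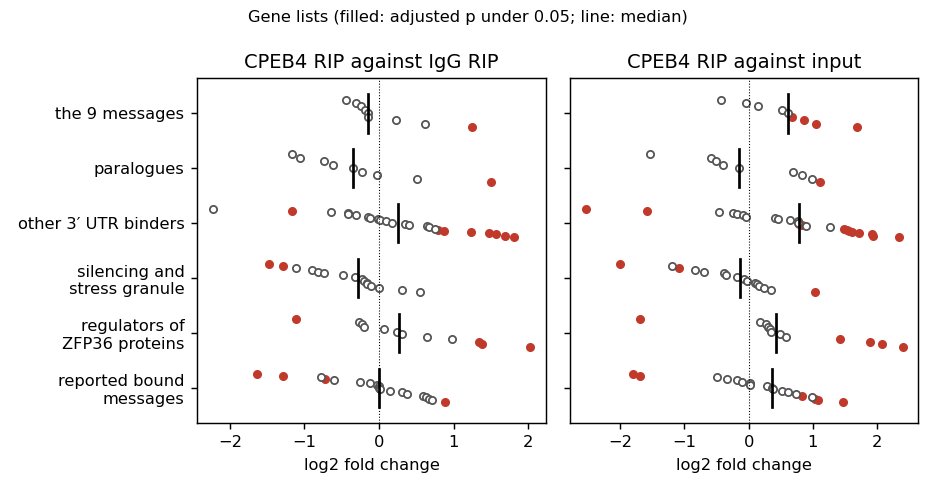
Log2 fold change of each tested gene of the 9 messages and of 5 related gene lists, in CPEB4 RIP against IgG RIP (left) and against input (right), with filled points for an adjusted p under 0.05 and a line at each list's median. The 9 messages have 1 filled point over IgG and 4 over input, and the other 3′ UTR binders have 8 and 12. Of all genes tested 8.21% were called over IgG and 12.7% over input.

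Over the 6 libraries the genes with the highest Pearson r of log2 CPM with Zfp36l2, among 7077 other genes of at least 10 CPM on average, were Mbd2 (r = 0.999), Atp5l (0.998) and Ndufb5 (0.998). Those most like Msi2 were Rhoq (0.998), Wsb2 (0.998) and Rnf149 (0.996). These genes share the same 6 libraries and the same 3 groups, and 451 genes had an r above 0.95 with Zfp36l2 and 348 with Msi2.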

How the data were processed

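RNA was sequenced from SMART-seq2 libraries, paired-end on a DNBSEQ-G400 per the labels. Alignment with HISAT2 and counting with featureCounts on mm10 are per the submitters' processing notes; versions, annotation, strand setting and multi-mapping rules were not given in the sources used here. Whole-number counts were deposited by the authors without normalization, 1 column per library. The deposited FPKM table was scaled by the authors with a library total that is not the sum of the counts (ratio 0.986 to 1.21 relative to CPEB4 RIP replicate 1). Reads carry no molecular identifiers here, so depth limits counting error only.

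The tests ran in edgeR 4.0.16 under R 4.3.3: filterByExpr (minimum count 10, minimum total 15), TMM, and glmQLFit and glmQLFTest with group as the only term over all 6 libraries, two-sided, 3 residual degrees of freedom. SE is the absolute log2 fold change over the square root of F, and 95% intervals use the t distribution. Positions are from RefSeq on GRCm38, which matched 9 of 9 messages. Gene length is relative, from the ratio of counts to FPKM. Alternatives used DESeq2 1.42.0 and limma 3.58.1 on log2(FPKM + 1) and log2(FPKM + 0.1). All 9 messages are named, with up to 3 called genes of the smallest p in each other list and the 3 genes most alike for the 2 messages of smallest p over IgG; Elavl4 and overlapping genes were named after their values were seen. The messages and lists were chosen with earlier results of these data known. In simulated data of 18054 genes for CPEB4 RIP against IgG RIP, with 200 changed, edgeR recovered 7% of 2-fold and 28% of 4-fold changes, and 7.89% of 38 calls were false. The changed genes were drawn at any level and were fewer than the 1482 called in the data. These shares therefore do not give the power of the test for the 9 messages.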

Additional observations from a re-analysis of the deposited data

How the results depend on the processing

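Over IgG the number of the 9 messages called was 1. It was 2 with library size alone, with a mean count of at least 20 and with the DESeq2 Wald test. It was 0 with a gene length offset, with limma on log2(FPKM + 0.1) and with limma on log2(FPKM + 1) without a filter. Over input the number was 4. It was 7 with only the 4 libraries compared and 0 with limma on log2(FPKM + 0.1). It was 1 with a gene length offset and with limma on log2(FPKM + 1) without a filter. For IgG RIP against input it was 0, and 2 without a low-count filter and with DESeq2; leaving out 1 library gave 0 to 4. Genes called in all moved as well: over IgG from 1482 to 0 with the length offset and with limma on log2(FPKM + 0.1), 128 with limma without a filter, 2428 without a low-count filter and 2892 with DESeq2; over input from 2294 to 661, 0, 712, 2930 and 3479 in the same order, and 7340 with the 4 libraries compared.

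Values that changed sign were not called in the fit to all 6 libraries, and the cause was not tested. Over IgG, leaving out 1 library gave -0.061 to 0.074 for Zfp36, -0.24 to 0.34 for Zfp36l1, -0.30 to 0.10 for Elavl1, -0.29 to 0.30 for Pum2 and -0.56 to 0.46 for Fmr1. Zfp36 stood at 0.0011 without CPEB4 RIP replicate 1. Over input, Elavl1 was 0.081 without a low-count filter and 0.40 with the length offset, and -0.18 to 0.18 with 1 library left out; Pum2 was -0.061 with library size alone. For IgG RIP against input, leaving out 1 library gave -0.071 to 0.26 for Elavl1, -0.086 to 0.50 for Pum2, -0.24 to 0.018 for Msi2 and -0.14 to 0.033 for Stau1. There Msi2 was 0.025 without a low-count filter and 0.21 with the length offset. Stau1, at 0.02 in the fit to all 6 libraries, was -0.022 with DESeq2 size factors and with the DESeq2 Wald test, -0.12 with library size alone, -0.063 without mitochondrial genes, -0.056 with a mean count of at least 20, -0.064 with limma on log2(FPKM + 1) with and without a filter, -0.066 with the 4 libraries compared, -0.069 with limma on log2(FPKM + 0.1), and -0.034 when thinned to the lowest total.

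Library size alone moved the median log2 fold change of all genes over input by -0.22 and that of IgG RIP against input by -0.13. Over input that median moved by -0.15 with a mean count of at least 20, 0.11 without a low-count filter and 0.16 with the length offset. Over input, the number of calls in each related list also moved when 1 library was left out, which leaves 1 library in a group. The filter on low counts was redone in each fit with 1 library left out, which tested 20426 to 22420 genes. Deviations from group means of same-numbered libraries correlated at 0.133, -0.016 and 0.0697. With 2 libraries per group these values cannot decide whether replicate numbers pair the libraries. With a replicate block the counts of messages called were 1, 4 and 0 in the 3 comparisons. Genes called in all were 1850, 2615 and 25 with the block, against 1482, 2294 and 0 without it.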
